A study of Mus musculus with 8 samples.

Results

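The genes described here are 10 markers of mouse embryonic stem cells (ESCs): the developmental pluripotency-associated genes Dppa2, Dppa3, Dppa4 and Dppa5a, the threonine dehydrogenase gene Tdh, Utf1, Fbxo15, Zfp42 (which encodes REX1), and the RNA-binding protein genes Lin28a and Lin28b. They were taken by their symbols from a table of raw read counts that holds 55335 genes, and all 10 were found and passed the filter on low counts, as 10 of the 16504 genes tested. Poly(A) RNA was sequenced from E14, an ESC line, after infection with lentiviral short hairpin RNAs (shRNAs). The 4 groups of 2 libraries were a negative control shRNA (control), a Sox2 knockdown (Sox2-KD), an Hnrnpk knockdown (labelled shHnrnpk) and a Cdk9 knockdown (Cdk9-KD). Every group therefore carried a lentiviral hairpin and came from the same line. The age of the cultures at harvest and which hairpin each library received are not given in the labels.

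SOX2 is a transcription factor that binds DNA together with OCT4 at ESC enhancers, hnRNPK is a nucleic acid-binding protein with roles in splicing, and CDK9 is the kinase of the elongation factor P-TEFb. DPPA2 and DPPA4 are DNA-binding partners that keep bivalent promoters open to activation and act upstream of genes of the 2-cell embryo. DPPA3 (also called Stella) protects maternal methylation after fertilization. DPPA5 is an RNA-binding protein with a KH domain. UTF1 is chromatin-associated, FBXO15 is an F-box protein, REX1 is a zinc-finger relative of YY1, and TDH starts the breakdown of threonine that feeds 1-carbon metabolism in mouse ESCs. LIN28A and LIN28B block the maturation of let-7 miRNAs, and let-7 in turn targets the mRNAs of both.

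The libraries held between 16709201 and 17719366 counts. Levels are given in CPM, read counts divided by the TMM-adjusted size of each library, with the 2 replicates of a group in order. Sox2, the target of the first knockdown, had 412 and 530 CPM in control and 320 and 284 CPM in Sox2-KD, a decrease that passed the test (log2FC −0.64 ± 0.16, SE, edgeR adjusted p = 0.0479). Cdk9 had 109 and 129 CPM in control and 73.1 and 53.2 CPM in Cdk9-KD, which did not overlap but missed the threshold (log2FC −0.91 ± 0.18, edgeR adjusted p = 0.0985). Hnrnpk went against its label in 1 library: it had 1094 and 1131 CPM in control, 697 CPM in replicate 1 of the libraries labelled shHnrnpk and 1144 CPM in replicate 2. For the marker genes named at the start, differences from that group that passed the test, and several others, are therefore also given without replicate 2. For the other named genes and the gene lists, the log2FC values, means and medians that rest on that group use both replicates. Their dependence on replicate 2 is not given. The 6 ESC markers checked (Pou5f1, Nanog, Sox2, Klf4, Esrrb and Zfp42) were present in all groups. Their summed level was 3814 to 4052 CPM in control and 3089 to 3366 CPM in Sox2-KD. It was 3783 to 4101 CPM in the libraries labelled shHnrnpk and 4214 to 4844 CPM in Cdk9-KD. The sum includes Sox2, the target of the knockdown, so that part of the fall in Sox2-KD is that of Sox2 itself. Zfp42 is also among the genes described here. The 7 trophectoderm markers summed to 45.6 to 58.3 CPM in control and 156 to 284 CPM in Sox2-KD, and the 7 primitive endoderm markers to 3.83 to 5.10 CPM and 43.1 to 62.5 CPM. The trophectoderm sum was also above control in the libraries labelled shHnrnpk (65.0 to 113 CPM) and in Cdk9-KD (69.6 to 72.4 CPM). The primitive endoderm sum was 2.97 to 4.69 CPM and 4.85 to 5.96 CPM there. Few genes carried the sums in Sox2-KD: Krt8 had 97.1 and 182 CPM and Krt18 41.4 and 82.7 CPM, and Dab2 had 35.0 and 54.2 CPM. Cdx2, a defining trophectoderm factor in the same sum, went the other way, with 19.8 and 35.1 CPM in control and 6.10 and 6.22 CPM in Sox2-KD. None of these 14 markers was at 0 in both Sox2-KD libraries. The 7 fibroblast markers summed to 4.62 to 5.27 CPM in Sox2-KD, against 4.98 to 6.19 CPM in control. In bulk RNA, fewer cells of a type and less RNA per cell cannot be told apart. Whether cells of these other types were present, or had a part in the values below, was not tested.

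In Sox2-KD, 2 of the 10 ESC markers rose against control, Dppa2 by 1.69-fold and Utf1 by 1.74-fold, and none fell. Differential expression (DE) required an edgeR adjusted p below 0.05 together with a log2FC beyond 0.6 in either direction. Of all genes tested, 4.32% were DE in this comparison, 2.63% higher and 1.69% lower. The libraries of both groups did not overlap for 4 of the 10 markers and for 53.3% of all genes. The median log2FC of the 10 markers was −0.11, against 0.02 over all genes tested.

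In the libraries labelled shHnrnpk, no marker was DE, and neither was any other gene (0%) by the quasi-likelihood test. By DESeq2 74 genes were DE and by the likelihood ratio test 87, none of them among the 10 markers. At an unadjusted p under 0.05, 3 markers and 8.03% of all genes were counted, the markers being Utf1, Dppa3 and Fbxo15. The libraries did not overlap with control for 4 markers and for 39.1% of all genes. Leaving out replicate 2 also gave 0 DE genes.

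In Cdk9-KD, no marker was DE either, where 0.139% of all genes were, a total of 23. At an unadjusted p under 0.05 there were 4 markers (Dppa3, Utf1, Zfp42 and Fbxo15) and 10.4% of all genes. The libraries did not overlap with control for 4 markers and for 39.2% of all genes. DESeq2 and the likelihood ratio test each called 2 markers in this comparison, Utf1 and Dppa3, where the quasi-likelihood test called none. The 3 comparisons with control share the same 2 control libraries, so that their values are set side by side below and not counted as independent.

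Knockdowns were also compared with each other, which leaves the control libraries out of the difference. Against the libraries labelled shHnrnpk, Dppa2 was higher and Lin28a lower in Sox2-KD, where 5.9% of all genes were DE, 3.95% higher and 1.95% lower. Against Cdk9-KD, Dppa2 was again higher and no marker was lower, where 7.33% of all genes were DE, 4.77% higher and 2.56% lower. Without replicate 2 of the libraries labelled shHnrnpk, neither call against that group remained.

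**Figure D1:**
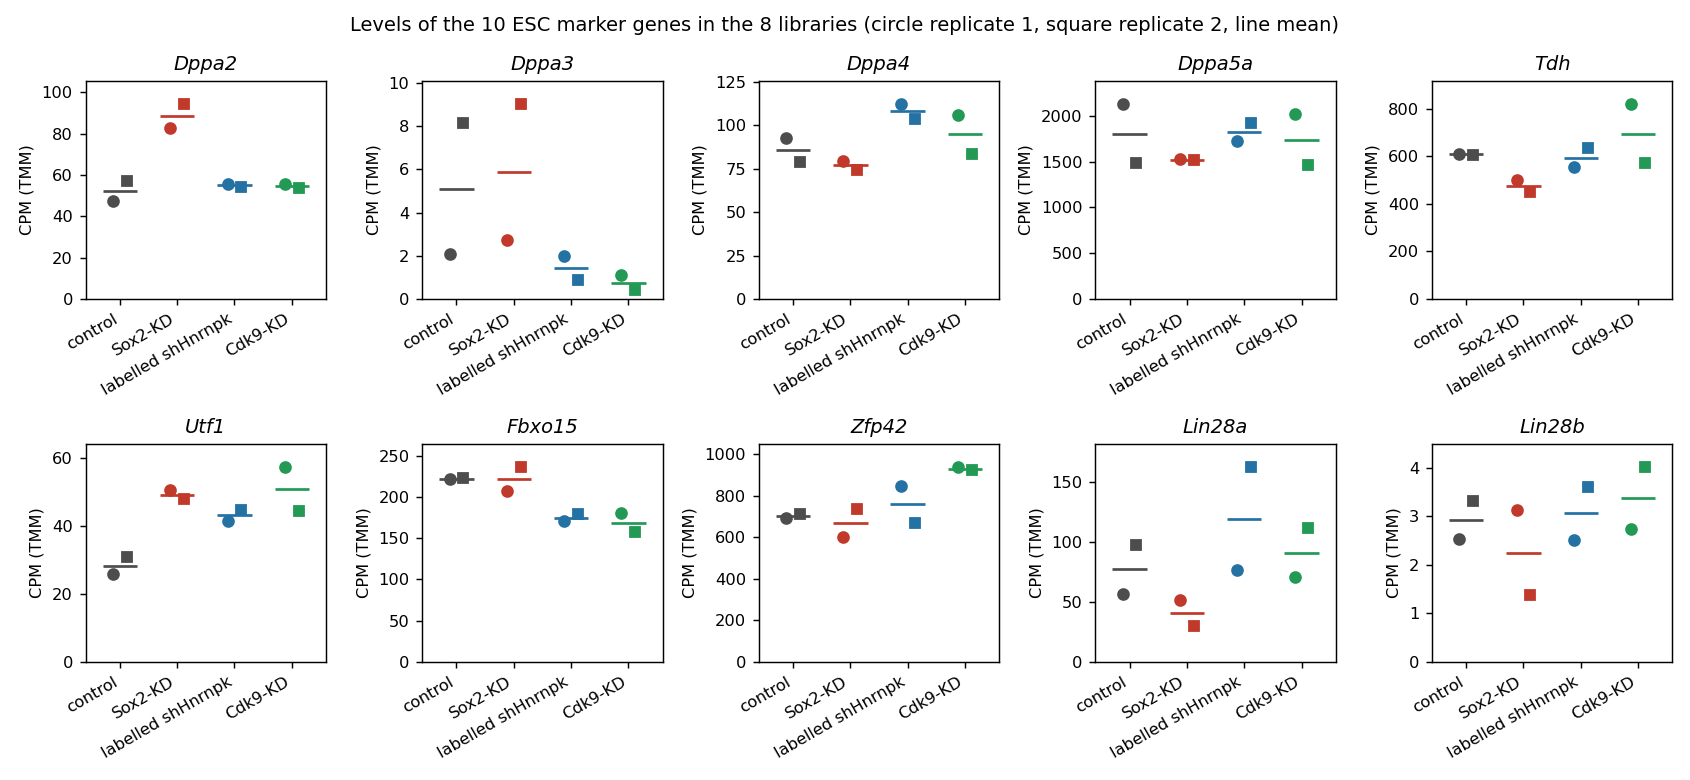
Level of each of the 10 ESC marker genes in CPM (linear axis from 0) in the 8 libraries, by group; circles are replicate 1, squares replicate 2 and lines the mean of 2. Dppa2 is highest in both Sox2-KD libraries, Utf1 is higher in all 6 knockdown libraries than in control, and the replicates of Dppa3 and Lin28a lie far apart.

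**Figure D2:**
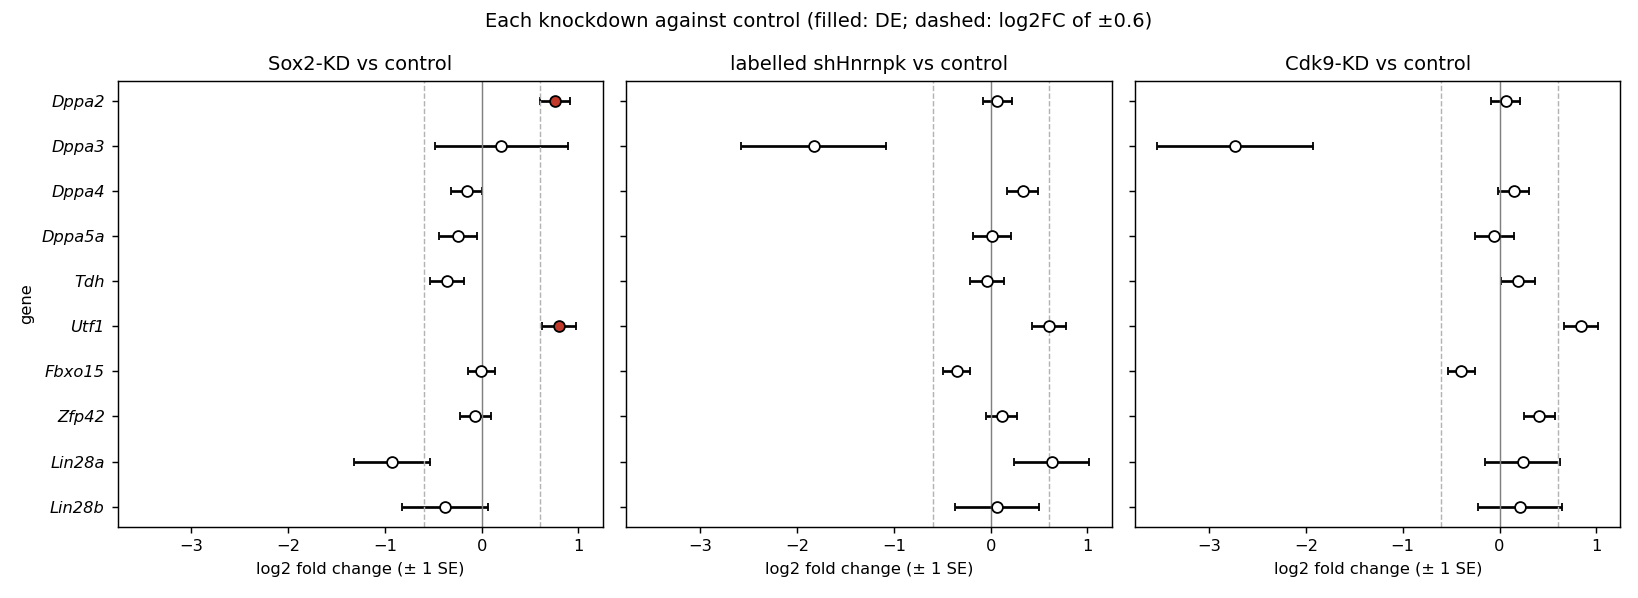
log2 fold change of each of the 10 genes in each knockdown against the same control libraries, with bars of 1 SE from the edgeR fit; filled points are DE and dashed lines mark a log2FC of 0.6 in either direction. Dppa2 and Utf1 in Sox2-KD are the 2 filled points, and Dppa3 has the widest bars.

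Levels were compared between genes only per kilobase of exon. In control, Dppa5a was at 2917 ± 731 CPM per kb (SD, n = 2), followed by Zfp42 at 372 ± 6.59 and Tdh at 233 ± 0.593. Fbxo15 had 66.3 ± 0.303 and Dppa4 51.6 ± 5.82 CPM per kb. These 5 genes kept apart from each other in control by more than their replicate spread. Utf1 (23.1 ± 2.93), Dppa2 (21.4 ± 2.79) and Lin28a (19.3 ± 7.24 CPM per kb) did not differ beyond their spread. Dppa3 followed at 5.73 ± 4.80 CPM per kb, and Lin28b was lowest at 0.323 ± 0.0615. Lin28b thus had a far lower level per length than Lin28a, its paralog, in every group. In Sox2-KD the order of the means was the same for these genes, but Utf1 at 40.2 ± 1.41 and Dppa2 at 36.1 ± 3.34 CPM per kb lay apart from Lin28a at 10.2 ± 3.88.

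**Figure D3:**
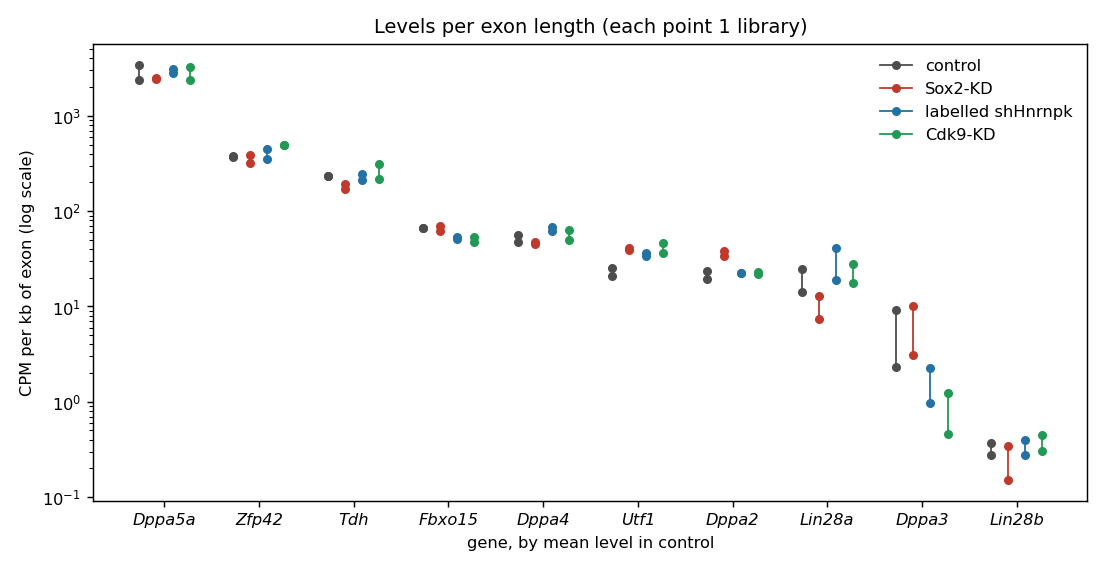
Level of each gene in CPM per kb of exon (log axis), with 1 point per library, a line that joins the 2 replicates of a group and the genes ordered by their mean in control. Dppa5a lies at the top and Lin28b at the bottom in all 4 groups, and the widest pairs are those of Dppa3.

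Dppa2 (ENSMUSG00000072419.5) and Dppa4 (ENSMUSG00000058550.15) lie on the + strand of chromosome 16 of GRCm38, from 48303908 to 48319723 and from 48283733 to 48294237. Dppa2 had 47.5 and 57.2 CPM in control, 82.5 and 94.1 CPM in Sox2-KD, 55.5 and 54.4 CPM in the libraries labelled shHnrnpk, and 55.7 and 53.7 CPM in Cdk9-KD. Both Sox2-KD libraries were above the other 6, and those 6 lay close together. The increase over control was 0.75 ± 0.15 on the log2 scale (SE, edgeR adjusted p = 0.0228). Over the libraries labelled shHnrnpk it was 0.68 ± 0.15 (edgeR adjusted p = 0.0289) and over Cdk9-KD 0.69 ± 0.15 (edgeR adjusted p = 0.0221). All 3 calls need both replicates: with any 1 library left out, the adjusted p against control was between 0.0596 and 0.197, while the log2FC stayed between 0.61 and 0.89. It was between 0.0533 and 0.262 against the group labelled shHnrnpk (0.175 without its replicate 2) and between 0.0513 and 0.185 against Cdk9-KD. The call against the group labelled shHnrnpk was also lost when genes were not filtered (edgeR adjusted p = 0.0571).

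Its partner Dppa4 did not move with it. Dppa4 had 92.6 and 78.9 CPM in control, 79.6 and 74.4 CPM in Sox2-KD, 112 and 104 CPM in the libraries labelled shHnrnpk, and 106 and 83.6 CPM in Cdk9-KD. The Sox2-KD libraries overlapped with control and lay below those of both other knockdowns. The log2FC of Sox2-KD was −0.16 ± 0.16 against control (edgeR adjusted p = 0.653) and −0.49 ± 0.16 against the libraries labelled shHnrnpk (edgeR adjusted p = 0.106). The latter was −0.53 without replicate 2 (edgeR adjusted p = 0.27). The test does not show that the level of Dppa4 was the same, only that no difference passed.

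Dppa3 (ENSMUSG00000046323.8, chromosome 6, 122626410 to 122630272, + strand) was counted in few reads, 37 and 142 in control, 50 and 158 in Sox2-KD, 34 and 15 for the group labelled shHnrnpk, and 19 and 7 in Cdk9-KD. In CPM this was 2.08 and 8.13, 2.75 and 9.02, 1.99 and 0.873, and 1.11 and 0.414. Replicate 2 was the higher library in control and Sox2-KD and the lower library in the other 2 groups, and replicates of 1 group differed by 2.28 to 3.90 times. The Cdk9-KD libraries and those labelled shHnrnpk were all below those of control, yet the lowest control library was close to the highest of them. The log2FC was −2.73 ± 0.80 in Cdk9-KD (edgeR adjusted p = 0.274) and −1.83 ± 0.75 in the libraries labelled shHnrnpk (edgeR adjusted p = 0.581). Without replicate 2 the latter was −1.38 (edgeR adjusted p = 0.932). DESeq2 called the decrease in Cdk9-KD (adjusted p = 0.014), and so did the likelihood ratio test of edgeR (adjusted p = 0.0409). Between Sox2-KD and Cdk9-KD the log2FC of 2.93 ± 0.80 fell just short of the threshold (edgeR adjusted p = 0.0514). It passed under 6 of 12 alternatives, DESeq2 among them (adjusted p = 0.00114). Over the group labelled shHnrnpk, Dppa3 in Sox2-KD had a log2FC of 2.03 ± 0.75 (edgeR adjusted p = 0.144), or 1.57 without replicate 2 of that group (edgeR adjusted p = 0.464), and DESeq2 called the difference with all libraries (adjusted p = 0.0419).

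A list of 10 genes of the 2-cell embryo and germline that have been linked to DPPA2 and DPPA4 was read beside them, with Dppa3 not among its genes. Of the 8 that were tested, Slc25a31, a germline ADP/ATP carrier, was the only DE gene in Sox2-KD against control. It had 0.619 and 0.344 CPM in control and 2.58 and 3.25 CPM in Sox2-KD (log2FC 2.58 ± 0.57, edgeR adjusted p = 0.0317). Slc25a31 was also higher in Sox2-KD than in the libraries labelled shHnrnpk (log2FC 2.24 ± 0.55, edgeR adjusted p = 0.0397) and than in Cdk9-KD (log2FC 2.10 ± 0.55, edgeR adjusted p = 0.0431). Against control, these 8 had a median log2FC of 0.17 in Sox2-KD, −1.44 in the libraries labelled shHnrnpk and −2.39 in Cdk9-KD, where the median of all genes was 0.02 in each comparison. None of the 8 was DE in the last 2 groups. The medians depended on the control libraries: without control replicate 1 they were 2.67, 0.46 and −0.35, and without control replicate 2 −0.39, −2.10 and −3.32. Zscan4c, named after its values were seen, had 8.56 and 0.573 CPM in the 2 control libraries. It had 1.93 and 0.116 CPM in the libraries labelled shHnrnpk. No direction is therefore read from the medians against control. Between knockdowns, all 8 had a positive log2FC in Sox2-KD, with a median of 2.07 over the libraries labelled shHnrnpk and 3.06 over Cdk9-KD. The median of all genes was −0.01 and −0.02 there, and only Slc25a31 was DE. How far the medians between knockdowns rest on 1 library was not tested. Several of these genes, the Zscan4 genes among them, have near-identical copies, so that their counts are uncertain. For the same reason the 8 genes are not 8 independent observations.

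Dppa5a (ENSMUSG00000060461.5, chromosome 9, 78367052 to 78368177, − strand) had 2126 and 1486 CPM in control, 1532 and 1515 CPM in Sox2-KD, 1722 and 1920 CPM in the libraries labelled shHnrnpk, and 2022 and 1460 CPM in Cdk9-KD. All groups overlapped with control. The largest difference from control was in Sox2-KD, at a log2FC of −0.25 ± 0.20 (edgeR adjusted p = 0.553). Of the 10 other genes whose transcripts matched Dppa5a with at least 90% identity over 150 bases, among them Dppa5b and Dppa5c, 9 had any count, and together they reached at most 1.31% of the counts of Dppa5a in a library. Copies were likewise minor for Dppa2 (at most 1.61%) and Dppa4 (at most 1.09%), and for Dppa3 they reached 5.88%. How reads shared between copies were assigned is not stated, and a transfer of reads between them was not tested.

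Utf1 (ENSMUSG00000047751.9, chromosome 7, 139943789 to 139945112, + strand) was higher in Sox2-KD than in control. It had 25.8 and 30.9 CPM in control, 50.5 and 48.1 CPM in Sox2-KD, 41.4 and 44.8 CPM in the libraries labelled shHnrnpk, and 57.4 and 44.4 CPM in Cdk9-KD. All 6 knockdown libraries were above both control libraries. The log2FC against control was 0.80 ± 0.18 in Sox2-KD (edgeR adjusted p = 0.0328), 0.61 ± 0.18 in the libraries labelled shHnrnpk (edgeR adjusted p = 0.457) and 0.84 ± 0.18 in Cdk9-KD (edgeR adjusted p = 0.137). The value in Cdk9-KD was as large as that in Sox2-KD, and it passed with DESeq2 (adjusted p = 0.00976) and with the likelihood ratio test of edgeR (adjusted p = 0.00553). Because the control libraries are shared, a low value in them enters all 3. Compared directly, Sox2-KD and Cdk9-KD differed in Utf1 by a log2FC of −0.05 ± 0.17 (edgeR adjusted p = 0.92), and Sox2-KD and the libraries labelled shHnrnpk by 0.19 ± 0.18 (edgeR adjusted p = 0.578). Without replicate 2 of the latter, the log2FC against control was 0.52 (edgeR adjusted p = 0.858). In Sox2-KD the call against control was lost when any 1 of the 4 libraries was left out (edgeR adjusted p between 0.109 and 0.234) or when genes were not filtered (0.0695).

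Zfp42 (ENSMUSG00000051176.6, chromosome 8, 43295063 to 43306980, − strand) had 691 and 709 CPM in control, 601 and 736 CPM in Sox2-KD, 846 and 668 CPM in the libraries labelled shHnrnpk, and 937 and 923 CPM in Cdk9-KD. Both Cdk9-KD libraries were above all other libraries, by a log2FC of 0.41 ± 0.16 over control that did not pass the test (edgeR adjusted p = 0.406). In Sox2-KD the log2FC was −0.07 ± 0.16 (edgeR adjusted p = 0.87). The pseudogene Zfp42-ps1 matched Zfp42 at 98.1% over 266 bases and reached 5.42% of its counts. Of its relatives in the YY1 family, Yy1 was tested and not DE in any comparison, with a log2FC of 0.05 in Sox2-KD against control, and Yy2 had no counts.

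Since SOX2 acts with OCT4, the 250 bases before the start of transcription were searched on both strands for the octamer bound by OCT4 (ATGCAAAT), a SOX motif (CATTGTT) and a KLF motif (GGGTGTGG). RefSeq promoters of build GRCm38.p6 matched 4 of the 10 genes, Lin28a, Lin28b, Utf1 and Zfp42. Among these, Zfp42 held the octamer, 186 bases before the start, and a KLF motif, both shown in capitals as they read on the strand of the gene, at chr8:43307010-43307259 on the − strand:
Zfp42: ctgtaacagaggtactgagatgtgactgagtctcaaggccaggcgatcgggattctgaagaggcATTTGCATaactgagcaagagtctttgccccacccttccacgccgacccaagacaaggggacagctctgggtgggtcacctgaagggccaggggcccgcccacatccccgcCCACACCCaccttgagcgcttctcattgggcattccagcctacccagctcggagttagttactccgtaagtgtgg
Of all 32851 promoters of that length, 1.6% held the octamer, 3.29% the SOX motif and 3.2% the KLF motif. The promoters of Lin28a, Lin28b and Utf1 held none of the 3 in these letters. That of Lin28b, chr10:45470202-45470451 on the − strand, lies inside the annotated gene, which begins at 45486395. The bases before that outermost start were not searched. These matches are descriptions of sequence and were not tested against the levels.

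Fbxo15 (ENSMUSG00000034391.12, chromosome 18, 84934782 to 84981473, + strand) had 222 and 223 CPM in control, 208 and 237 CPM in Sox2-KD, 170 and 179 CPM in the libraries labelled shHnrnpk, and 181 and 158 CPM in Cdk9-KD. The 4 libraries of the last 2 groups were below both control libraries, and those of Sox2-KD lay on either side. The log2FC against control was −0.35 ± 0.14 in the libraries labelled shHnrnpk (edgeR adjusted p = 0.574) and −0.40 ± 0.14 in Cdk9-KD (edgeR adjusted p = 0.364). Neither passed. Without replicate 2 the first of these was −0.41 (edgeR adjusted p = 0.858). Sox2-KD differed from control by a log2FC of −0.002 ± 0.14, less than its error.

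Tdh (ENSMUSG00000021953.14, chromosome 14, 63492347 to 63509092, − strand) had 610 and 608 CPM in control, 502 and 451 CPM in Sox2-KD, 555 and 635 CPM in the libraries labelled shHnrnpk, and 819 and 573 CPM in Cdk9-KD. Both Sox2-KD libraries were below the other 6. The difference did not pass against control (log2FC −0.35 ± 0.18, edgeR adjusted p = 0.309) nor against Cdk9-KD (log2FC −0.55 ± 0.18, edgeR adjusted p = 0.0907). Without replicate 2 of Cdk9-KD, the replicate with the lower level, the latter was −0.79 and passed (edgeR adjusted p = 0.0297). Tdh shares 66 exon bases with the antisense gene Gm17232, and the strand setting of the counting is not stated, so that reads from these bases cannot be assigned.

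TDH hands its product to GCAT, and glycine is then used by the glycine cleavage system and the folate enzymes. Of the 11 other enzymes reported for these steps, 2 fell in Sox2-KD against control and none rose. Gcsh, which carries the lipoyl group of the glycine cleavage system, had 157 and 160 CPM in control and 84.7 and 75.0 CPM in Sox2-KD (log2FC −0.99 ± 0.20, edgeR adjusted p = 0.0216). Shmt1, the cytosolic serine hydroxymethyltransferase gene, fell by 0.65 ± 0.14 on the log2 scale (edgeR adjusted p = 0.034). The median log2FC of the 11 was −0.47, against 0.02 over all genes tested, and 9 of the 11 were negative. Gldc and Amt, also enzymes of the glycine cleavage system, hardly differed, with means of 99.5% and 104% of control in Sox2-KD. They were named after their values were seen. Against the libraries labelled shHnrnpk, 2 of the 11 were lower in Sox2-KD, namely Gcsh (log2FC −1.10) and the dihydrolipoamide dehydrogenase gene Dld (−0.62), and against Cdk9-KD only Gcsh was (log2FC −0.99). In the other 2 knockdowns none of the 11 was DE against control, with a median log2FC of −0.06 in the libraries labelled shHnrnpk and −0.09 in Cdk9-KD.

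**Figure D4:**
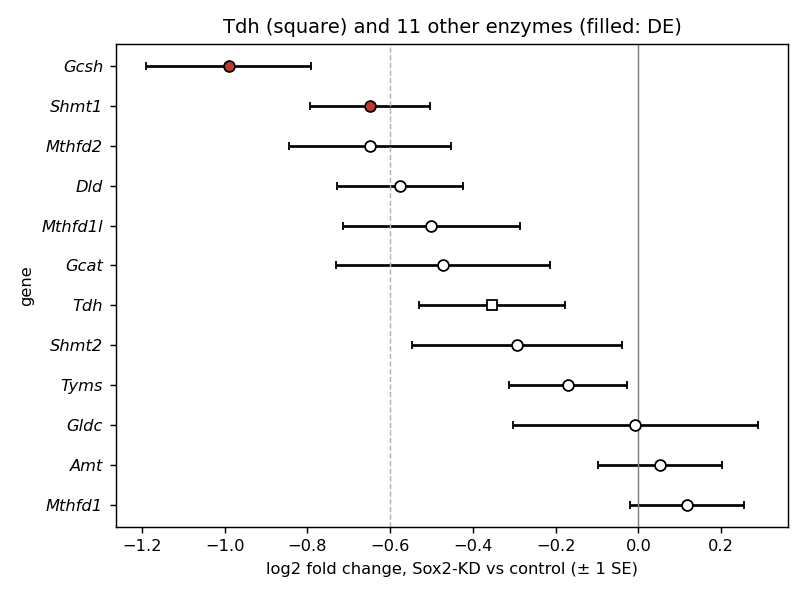
log2 fold change in Sox2-KD against control of Tdh (square) and 11 other enzymes of threonine, glycine and 1-carbon metabolism (circles), with bars of 1 SE from the edgeR fit, filled where DE. Gcsh and Shmt1 are filled, both to the left of the dashed line at −0.6, and Tdh lies at −0.35.

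The let-7 miRNAs are shown because they are the link between Lin28a and Lin28b. Mature sequences from RefSeq (GRCm38.p6) carry the seed, bases 2 to 8, in capitals:
mmu-let-7a-5p: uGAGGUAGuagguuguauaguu
mmu-let-7g-5p: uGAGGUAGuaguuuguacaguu
mmu-miR-98-5p: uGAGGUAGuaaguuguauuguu
Of the 11 mature names of the family that were found, 10 share this seed. The reverse complement of the seed, CTACCTC, was searched on the sense strand of the longest annotated 3′ UTR of each gene (GENCODE vM21, GRCm38). It occurs at 2 sites of Lin28a and 4 sites of Lin28b, and in none of the other 8 genes, while 9.06% of the 20954 genes with a 3′ UTR hold it at least once. The sites of Lin28a (chr4:134005183-134005211 and chr4:134004545-134004573, − strand) and the first of Lin28b (chr10:45381016-45381044, − strand) read as follows, with the match in capitals:
Lin28a, first site: gcacagcctgttgaaCTACCTCatttttg
Lin28a, second site: gagatcgccacaaacCTACCTCactgtgt
Lin28b, first site: acccgggcgggaagtCTACCTCatgcaag
The 3′ UTRs of Lin28a and Lin28b were 2775 and 4445 bases long, against a median of 966 bases, and a longer sequence holds any such match more often. The miRNAs themselves were not measured, since the libraries were made from poly(A) RNA.

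Lin28a (ENSMUSG00000050966.9, chromosome 4, 134003330 to 134018841, − strand) had 56.8 and 97.7 CPM in control, 51.5 and 29.6 CPM in Sox2-KD, 76.3 and 163 CPM in the libraries labelled shHnrnpk, and 70.5 and 112 CPM in Cdk9-KD. Both Sox2-KD libraries were below all others, while replicates of 1 group differed by 1.59 to 2.13 times. Against control the log2FC was −0.93 ± 0.39 and did not pass (edgeR adjusted p = 0.228). Against the libraries labelled shHnrnpk it was −1.56 ± 0.40 and passed (edgeR adjusted p = 0.0452), but this rests on 2 libraries: without replicate 2 of that group, in which Hnrnpk was not lower, it was −0.90 (edgeR adjusted p = 0.313), and without replicate 2 of Sox2-KD −1.22 (edgeR adjusted p = 0.343). The call was also lost with DESeq2 (adjusted p = 0.0781) and, in edgeR, with at least 10 counts in every library (adjusted p = 0.0508), with only the 4 libraries compared (adjusted p = 0.0555) and with the replicate block (adjusted p = 0.0579). Against Cdk9-KD the log2FC was −1.17 ± 0.39 (edgeR adjusted p = 0.106). Gm13061 overlaps 234 exon bases of Lin28a on the other strand and had at most 0.0829% of its counts.

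Lin28b (ENSMUSG00000063804.8, chromosome 10, 45376620 to 45486395, − strand) was counted in 24 to 68 reads a library. Its level was 2.53 and 3.32 CPM in control, 3.13 and 1.37 CPM in Sox2-KD, 2.52 and 3.61 CPM in the libraries labelled shHnrnpk, and 2.75 and 4.02 CPM in Cdk9-KD. All groups overlapped with control. The log2FC of Sox2-KD was −0.38 ± 0.44 against control (edgeR adjusted p = 0.698), and a difference of the size of its error could not be detected at this depth.

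None of the 9 partners of LIN28 in the let-7 pathway (among them the Drosha, Dicer1 and Trim71 genes) was DE in any comparison, and their median log2FC in Sox2-KD against control was −0.09. Of 11 tested genes that are known targets of let-7, 2 fell in Sox2-KD against control. Hmga1, an architectural chromatin protein gene, had 220 and 348 CPM in control and 157 and 138 CPM in Sox2-KD (log2FC −0.95 ± 0.22, edgeR adjusted p = 0.0387). Mycn, a MYC family transcription factor gene, fell by 0.70 ± 0.17 on the log2 scale (edgeR adjusted p = 0.043). The median of the 11 was −0.07, close to that of all genes, with 7 negative and 4 positive. Hmga2 and E2f6, named after their values were seen, went the other way without being DE. Hmga2 had 165 and 225 CPM in control and 242 and 310 CPM in Sox2-KD. E2f6 had 28.4 and 26.0 CPM in control and 43.8 and 39.9 CPM in Sox2-KD. Hmga1 was also lower in Sox2-KD than in Cdk9-KD (log2FC −0.83 ± 0.22, edgeR adjusted p = 0.0445). In the 2 other knockdowns none of the 11 was DE against control.

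**Figure D5:**
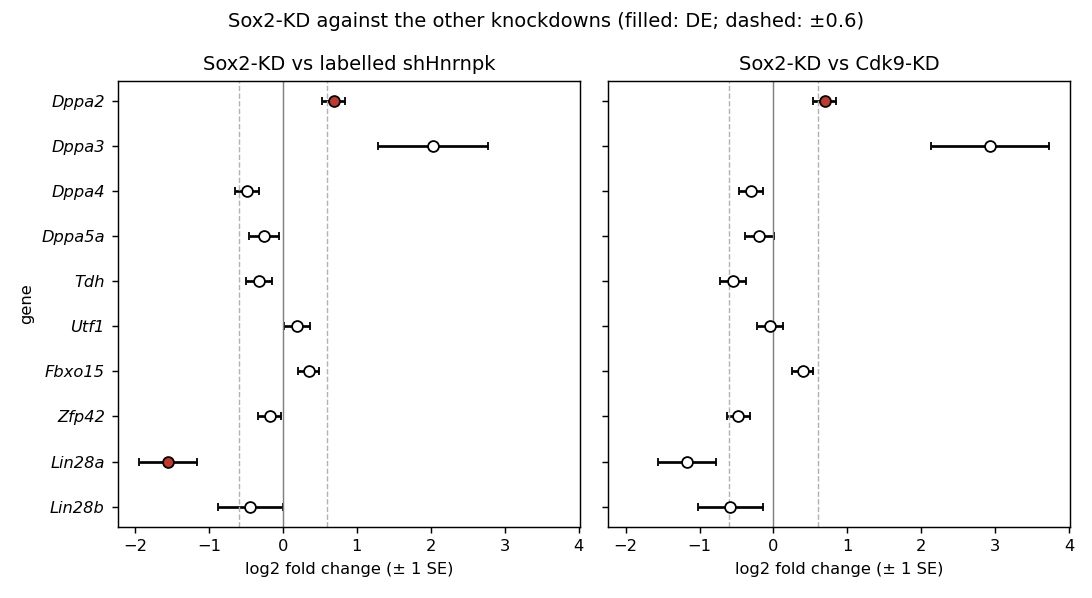
log2 fold change of each of the 10 genes in Sox2-KD against the libraries labelled shHnrnpk and against Cdk9-KD, with bars of 1 SE from the edgeR fit; filled points are DE and dashed lines mark a log2FC of 0.6 in either direction. Dppa2 is filled in both panels, Lin28a in the first, and Dppa3 in the second lies far to the right with an adjusted p of 0.0514.

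The other ESC genes gave a setting for these values. Of 14 naive and core pluripotency factors, none was DE in any of the 3 comparisons with control, and their median log2FC in Sox2-KD was −0.22. Nr0b1, which encodes DAX1, was lower in Sox2-KD than in the libraries labelled shHnrnpk (log2FC −1.11, edgeR adjusted p = 0.0339). Klf2, Tbx3 and Nr5a2 were lower in Sox2-KD than in Cdk9-KD (log2FC −1.08, −0.85 and −1.12). Their means were 71.7%, 92.8% and 68.2% of control in Sox2-KD, and 152%, 167% and 149% in Cdk9-KD. These gaps therefore include higher values in Cdk9-KD, where Nr5a2 had 100 and 192 CPM. Of 17 further ESC marker genes, 2 rose and 3 fell in Sox2-KD against control. Dnmt3l, the cofactor of the de novo DNA methyltransferases, had 86.4 and 78.9 CPM in control and 218 and 185 CPM in Sox2-KD (log2FC 1.28 ± 0.16, edgeR adjusted p = 0.00322). Tcl1, which encodes an activator of AKT, had 74.9 and 72.5 CPM in control and 31.0 and 31.0 CPM in Sox2-KD (log2FC −1.25 ± 0.15, edgeR adjusted p = 0.00275). Ooep and Spp1 fell by 0.74 each on the log2 scale, and the imprinting factor gene Zfp57 rose by 0.66. Dppa2 and Utf1 thus rose in a group in which other ESC markers rose and fell. None of the 17 was DE in the other 2 knockdowns against control. Dnmt3l and Zfp57 were still above both control libraries in both of these knockdowns. The mean of Dnmt3l was 186% of control in the libraries labelled shHnrnpk and 145% in Cdk9-KD, and that of Zfp57 146% and 189%. Of the genes that fell, Tcl1 and Ooep were below both control libraries in the former group and Spp1 in the latter. The shared control libraries enter all of these values.

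Against Cdk9-KD, Tcl1, Alpl, Mybl2 and Ooep were lower in Sox2-KD (log2FC −1.35, −1.43, −0.75 and −0.87) and Dnmt3l was higher (0.75). The mean of Mybl2 was 87.1% of control in Sox2-KD and 147% in Cdk9-KD, and that of Alpl 47.3% and 127%. Against the libraries labelled shHnrnpk only Tcl1 was DE, with a log2FC of −0.95. Of 8 tested formative pluripotency genes none was DE in Sox2-KD against control. Between knockdowns, Otx2 was lower in Sox2-KD than in the libraries labelled shHnrnpk (log2FC −1.62) and than in Cdk9-KD (−1.92). Its mean was 93.0% of control in Sox2-KD, 287% in the libraries labelled shHnrnpk and 355% in Cdk9-KD. The de novo methyltransferase genes Dnmt3a and Dnmt3b were each higher in 1 of these comparisons, by 0.97 over the former and 0.98 over the latter.

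Markers of other cell types were read from lists of 9 trophectoderm and 10 primitive endoderm genes, wider than the sets of 7 summed above. Of 7 tested trophectoderm genes, 4 rose in Sox2-KD against control (Eomes and, by 4.34, 3.48 and 2.97 on the log2 scale, Krt18, Gata3 and Krt8). The log2FC of Cdx2 was −2.15 ± 0.54 (edgeR adjusted p = 0.0521) and that of Tfap2c −0.50 ± 0.29 (edgeR adjusted p = 0.398), neither of which passed. Of 8 tested primitive endoderm genes, Dab2 rose by 5.85 and Gata6 by 3.65, and Lama1 fell by 1.01. In Cdk9-KD, Eomes rose by 2.39 and Tfap2c fell by 2.04. Of the 4 tested fibroblast genes Lum was DE in Sox2-KD, on 1.26 and 0.742 CPM, against 0 and 0.0573 CPM in control. Col1a2 went the other way without passing, with 1.80 and 1.37 CPM in control and 0.220 and 0.0571 CPM in Sox2-KD (log2FC −3.44 ± 0.89, edgeR adjusted p = 0.0565), and the median log2FC of the 4 was −0.39. Cdx2, Tfap2c and Col1a2 were chosen for this comparison after their values were seen.

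For the 3 markers that were DE in at least 1 comparison, the genes with the most similar pattern over the 8 libraries were sought, by the root mean square difference of log2 CPM after centring on control. For Dppa2 they were Dgke (0.0814) and Myd88 (0.0918), for Utf1 Tnfaip3 (0.0987) and Mfsd11 (0.120), and for Lin28a Adgrl2 (0.296) and E2f8 (0.319). These are descriptions over 8 libraries that share a normalization.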

How the data were processed

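Reads had been trimmed (Trimmomatic) and aligned by STAR, with the mm10 annotation of GENCODE vM23. The authors deposited the raw counts of each gene in the 8 libraries, without normalization or pooling. The submitters' processing notes name STAR 2.7.9a and featureCounts 2.0.1. The strand setting and the treatment of shared reads are not given in the sources used here. Of 55335 gene IDs, 55154 had a symbol in GENCODE vM21. Genes passed filterByExpr at a count of 10 and a total of 15, and counts were scaled by TMM, and tested with edgeR 4.0.16 (R 4.3.3) by the quasi-likelihood test over all 8 libraries, with a group term and Benjamini-Hochberg adjustment over 16504 genes. DE was called at the thresholds of the study, an adjusted p below 0.05 with a log2FC beyond 0.6 in either direction. The study names edgeR but not which of its tests, so that its calls may differ from those given here. The SE is the log2FC divided by the root of the F statistic. The code was tested on simulated data. The study calls its replicates biological duplicates. Replicates of each group differed by more than sampling noise (a chi-square per degree of freedom of 17.4 to 31.4), which cannot tell biological from technical replicates.

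Same-numbered replicates did not deviate together in every pair of groups (correlations of −0.23 to 0.23), so that the numbers were not used as a block. Alternatives were DESeq2 1.42.0, the likelihood ratio test, other size factors, library totals, other filters, only the libraries compared, a replicate block, no limit on log2FC, and each library left out. Levels per kb used exon lengths of GENCODE vM21. Copies were found with blastn 2.17.0, at 90% identity over at least 150 bases. 1 gene of the enzyme list is not reported here. The members and lists were chosen with earlier results of these data known. Named are all 10 markers, the 3 targeted genes, the copies, at most the 4 DE genes of each list with the largest absolute log2FC, and for markers that were DE the 2 genes of most similar pattern among those with an average log2 CPM over 1 (pseudocount 0.5 CPM).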

Additional observations from a re-analysis of the deposited data

How the results depend on the processing

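Of 645 values of the 10 markers under the alternatives, 575 kept their direction and their side of the threshold, 24 lost a call, 13 gained one and 33 turned direction. Among the 10 markers, the number DE in Sox2-KD against control was 2 and became 1 without a filter and 0 with any of the 4 libraries left out. In Cdk9-KD it was 0 and became 2 with DESeq2 and with the likelihood ratio test. Between Sox2-KD and the libraries labelled shHnrnpk it was 2 and became 1 without a filter (Dppa2 lost), with at least 10 counts in every library, with only the 4 libraries compared and with the replicate block, and between 0 and 1 with a library left out. Between Sox2-KD and Cdk9-KD it was 1 and became 2 with RLE size factors, library totals, only the 4 libraries compared and DESeq2, 3 with the likelihood ratio test, and between 0 and 1 with a library left out. The cause of these changes was not tested, except that leaving a library out leaves fewer samples.

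Directions turned only for values that were not DE. With library totals, Fbxo15 (0.0669) and Zfp42 (0.0037) turned positive in Sox2-KD, Dppa5a turned negative in the libraries labelled shHnrnpk (−0.0297), and Utf1 turned positive between Sox2-KD and Cdk9-KD (0.0248). With at least 10 counts in every library, Fbxo15 in Sox2-KD was at 0.0017 and Dppa5a in the libraries labelled shHnrnpk at −0.0072, as with only the 4 libraries compared (−0.0072). With 1 library left out, the log2FC of several markers crossed 0. In Sox2-KD against control it ranged for Dppa3 from −0.90 to 1.48, Dppa5a from −0.49 to 0.0186, Fbxo15 from −0.10 to 0.0779, Zfp42 from −0.22 to 0.0623 and Lin28b from −1.10 to 0.0941. In the libraries labelled shHnrnpk against control it ranged for Dppa2 from −0.0793 to 0.20, Dppa5a from −0.23 to 0.27, Tdh from −0.16 to 0.0497, Zfp42 from −0.0777 to 0.25, Lin28a from −0.0435 to 1.06 and Lin28b from −0.24 to 0.29. In Cdk9-KD against control it ranged for Dppa2 from −0.10 to 0.17, Dppa4 from −0.0687 to 0.31, Dppa5a from −0.34 to 0.19, Tdh from −0.12 to 0.43, Lin28a from −0.14 to 0.66 and Lin28b from −0.0922 to 0.42. Between Sox2-KD and the libraries labelled shHnrnpk it ranged for Lin28b from −1.17 to 0.0288. Between Sox2-KD and Cdk9-KD it ranged for Dppa5a from −0.42 to 0.0802 and Utf1 from −0.23 to 0.17.

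Over all genes, the likelihood ratio test called 1350 genes in Sox2-KD, 87 in the libraries labelled shHnrnpk and 279 in Cdk9-KD, and 1690 and 1869 between Sox2-KD and the other knockdowns, and DESeq2 called 74 and 221 in the latter 2 knockdowns. The quasi-likelihood test had called 713, 0, 23, 974 and 1210. With the replicate block 15 genes were DE in Cdk9-KD, and with it Lin28a between Sox2-KD and the libraries labelled shHnrnpk was at −1.42 (edgeR adjusted p = 0.0579), the only call among the 10 markers that the block changed. Without a library, between 144 and 343 genes were DE in Sox2-KD, 0 to 1 in the libraries labelled shHnrnpk, 0 to 32 in Cdk9-KD, 90 to 875 between Sox2-KD and the libraries labelled shHnrnpk, and 337 to 863 between Sox2-KD and Cdk9-KD. Depth limits Dppa3 and Lin28b, with as few as 7 and 24 reads in a library, and Dppa3 was not tested where at least 10 counts in every library were required.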

Other observations

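Dppa1, a gene of the Dppa name that is not among the 10 markers and was noticed only after its values were seen, had 1 and 0 counts in control, 66 and 86 counts in Sox2-KD, 5 and 1 counts in the libraries labelled shHnrnpk, and 0 in both Cdk9-KD libraries. No fold is given, because the control libraries are at or under 3 counts.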
